A study of Mus musculus with 4 samples.

Results

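Collagen chain genes were taken as every mouse gene whose symbol has the form Col, a type number, a and a chain number, which gave 44 of the 24342 genes with a symbol of their own in the deposited tables. They were read in aorta of 3-week-old C57BL/6 mice, in 2 libraries from GGPPS KO mice and 2 from WT mice. GGPPS is geranylgeranyl diphosphate synthase, the product of Ggps1, whose lipid product anchors certain signalling proteins to membranes. The labels do not say in which cells the gene was deleted, whether a promoter-driven recombinase was used, or how many animals gave RNA to a library, and the titles name male and female mice for every library. With n = 2 per genotype, each library's value is given, and replicate numbers within a genotype are names only, and p-values reflect only how these libraries differ among themselves, which may be technical. By class, 11 genes encode fibrillar chains, 6 basement membrane chains, 9 FACIT chains, 3 short chains, 4 transmembrane chains, 2 multiplexin chains and 7 beaded filament and VI-like chains, and 2 stand outside these classes.

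Collagens are extracellular proteins whose chains wind into helical trimers, and several types need chains from more than 1 gene. In the aorta, fibrils of types I, III and V carry tensile load in the media and adventitia. Type IV networks underlie the endothelium and surround smooth muscle cells, with laminins, nidogens and perlecan. Type VI beaded filaments lie close to basement membranes, multiplexins sit in the basement membrane zone, FACIT collagens attach to fibril surfaces, and the short chains of type VIII form a hexagonal network in some subendothelial matrices.

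The values are FPKM, the authors' fragment counts divided by transcript length and by the mapped fragments of the library, so levels of different chains can be set side by side. They summed to 611767.4 and 632917.6 in the GGPPS KO libraries, against 515926.8 and 520478.2 in the WT libraries, and the depth of the libraries is unknown. Ggps1 had 1.18 and 1.07 FPKM in GGPPS KO, against 8.96 and 10.6 FPKM in WT, a fall of the kind the labels name (log2 difference -2.34, SE 0.13, limma adjusted p = 3.54e-09). Smooth muscle genes marked the tissue, with a summed level of 5140.2 and 6861 FPKM in GGPPS KO, against 21685.6 and 24096.5 FPKM in WT for 12 contractile genes, all 12 called lower. Eln, the elastin gene, is listed at 0 in all libraries although aortic cells use it heavily, so a 0 in these files is given only as a listed value. Markers of other cells moved with genotype as well. Of tested markers, 11 of 11 macrophage genes were higher (summed level 554 and 469 FPKM in GGPPS KO, against 77.7 and 78.1 FPKM in WT), and so were 10 of 10 general leukocyte genes (252 and 203 FPKM in GGPPS KO, against 16.8 and 18.1 FPKM in WT). Of 11 tested endothelial genes 10 were lower (129 and 142 FPKM in GGPPS KO, against 342 and 344 FPKM in WT), of 6 pericyte genes 5 were lower (166 and 197 FPKM in GGPPS KO, against 355 and 368 FPKM in WT), and of 12 fibroblast genes 2 were higher and 9 lower (874 and 946 FPKM in GGPPS KO, against 1353.6 and 1434.6 FPKM in WT). Of these, 2 macrophage and 4 leukocyte genes reached 1 FPKM only in GGPPS KO and so could be called in no other direction. Fewer cells of a type and less RNA per cell cannot be told apart in these bulk libraries, and the part of cell makeup in the collagen values was not tested.

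As deposited, most tested collagen chains stood lower in GGPPS KO, while Col8a1, Col5a2, Col1a1 and 3 minor chains stood higher. Of the 44 genes, 26 reached 1 FPKM in at least 2 libraries and were tested. Of those, 17 were lower, 6 were higher and 3 were not called (limma adjusted p under 0.05 over 12312 genes). The shares called were 65.4% lower and 23.1% higher, beside 30.6% lower and 35.2% higher among all genes tested. In either direction 88.5% of the tested collagen genes were called, beside 65.7% of all genes. The median log2 difference was -0.57 over the 26 collagen genes and 0.03 over all genes tested. In 25 of the 26 the libraries of the genotypes did not overlap, as in 83.1% of all genes tested. The called genes nearest to the threshold were Col12a1 (adjusted p = 0.0257) and Col11a2 (0.0303), and the uncalled genes nearest to it were Col4a4 (0.185) and Col1a2 (0.24). One tested gene, Col23a1, passed the filter on low values only through the WT libraries.

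The size of these counts depends on how the values are scaled, so values under 2 such settings stand beside the results. With each library scaled to the same FPKM sum, 3 collagen genes were higher (11.5%) and 18 lower (69.2%), beside 25.1% higher and 45.6% lower among all genes. The collagen median moved to -0.78 and that of all genes to -0.20. With trends against transcript length and GC content removed from each library, 9 were higher (34.6%) and 10 lower (38.5%), beside 35.7% higher and 29.2% lower among all genes. Under that setting the collagen shares stood near those of all genes, and the collagen median moved to -0.10, beside 0.05 for all genes. The tested collagen genes have a median longest transcript of 6284.5 bases and a median GC content of 55.4%, against 3364 bases and 49.9% for all genes tested. Of the 17 lower calls 10 held without those trends, 6 were no longer called and 1 turned to higher, whereas all 6 higher calls held.

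**Figure D1:**
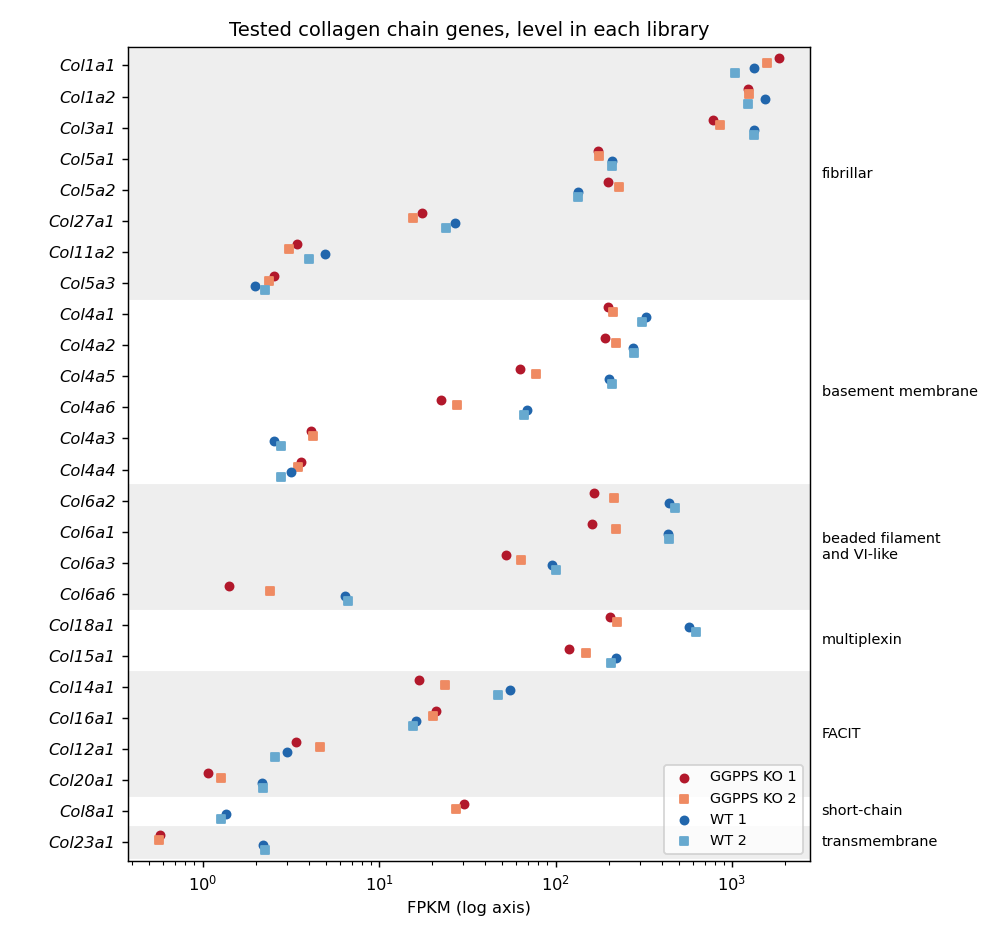
Level of the 26 tested collagen chain genes in each library, in FPKM on a log axis, with 1 point per library, GGPPS KO in red and orange, WT in blue, and circles and squares for libraries 1 and 2. Col1a1, Col1a2 and Col3a1 lie near the top in every library, and Col8a1 has the widest gap between genotypes, with GGPPS KO at 30.4 and 27.3 FPKM and WT at 1.36 and 1.27 FPKM.

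**Figure D2:**
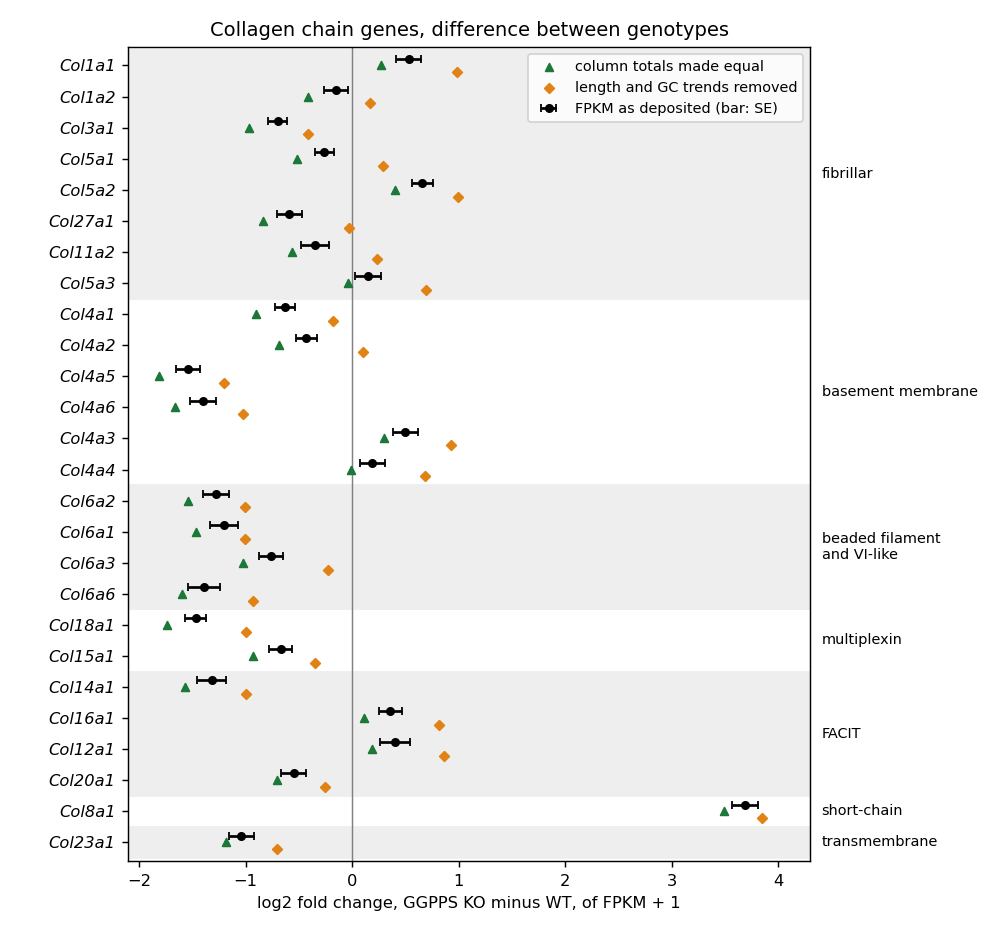
Log2 difference of FPKM + 1, GGPPS KO minus WT, for the 26 tested collagen chain genes by class, as deposited (black, bar 1 SE, n = 2 each), with column totals made equal (green) and with length and GC trends removed (orange). Type VI chains, Col18a1, Col4a5, Col4a6 and Col14a1 lie below 0 under all 3 settings, while the orange points of Col1a2, Col5a1, Col11a2 and Col4a2 lie above 0 and the green points of Col5a3 and Col4a4 below it.

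Collagen chains took a smaller share of all FPKM in GGPPS KO, and fibrillar chains took a larger share within the family. The 44 genes summed to 5521 and 5604.9 FPKM in GGPPS KO, against 7308.9 and 6771.2 FPKM in WT. That was 0.902% and 0.886% of the library in GGPPS KO, against 1.42% and 1.3% in WT. Fibrillar chains made up 77.2% and 73.3% of collagen FPKM in GGPPS KO, against 62.7% and 58.7% in WT. Basement membrane chains made up 8.71% and 9.72% in GGPPS KO, against 12% and 12.9% in WT. Both genotypes were separate in each of these shares, which do not change with the scaling of a library by a single factor. Shares were not taken with length and GC trends removed. Beaded filament and VI-like chains made up 6.89% and 8.95% in GGPPS KO, against 13.4% and 15.1% in WT. Multiplexins made up 5.86% and 6.66% in GGPPS KO, against 10.8% and 12.2% in WT. Short chains went the other way from these 3 classes, at 0.56% and 0.495% in GGPPS KO, against 0.031% and 0.0286% in WT. The summed level of fibrillar chains was 4261.5 and 4105.6 FPKM in GGPPS KO, against 4581.4 and 3976.1 FPKM in WT, so these overlapped. The 10 most abundant chains held between 89.6% and 93.4% of collagen FPKM in a library.

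**Figure D3:**
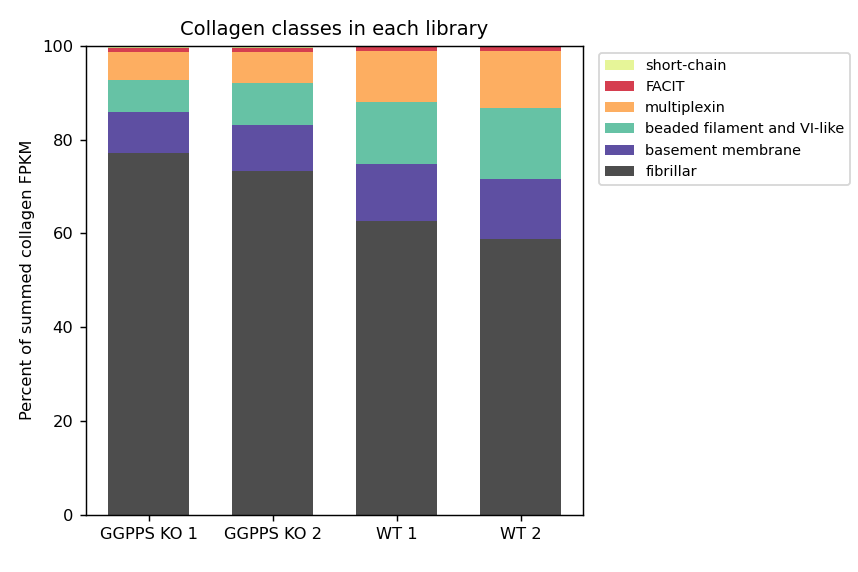
Share of the summed collagen FPKM held by each class, in percent, for each library, GGPPS KO left and WT right. Fibrillar chains hold 77.2% and 73.3% in GGPPS KO and 62.7% and 58.7% in WT, and the transmembrane chains and the 2 genes outside the classes, each under 0.05% of the sum, are not drawn.

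Fibrillar chains split: of 8 tested, Col1a1 and Col5a2 were higher, Col3a1, Col5a1, Col27a1 and Col11a2 were lower, and Col1a2 and Col5a3 were not called. The class median was -0.20 as deposited, -0.47 with equal totals and 0.26 with length and GC trends removed. Col1a1, which supplies the chain present in a pair of copies in the type I trimer, had 1850.4 and 1575 FPKM in GGPPS KO, against 1329.3 and 1046.2 FPKM in WT. Both GGPPS KO libraries lay above both WT libraries, and its mean was 1.44-fold higher (log2 difference 0.53, SE 0.12, limma adjusted p = 0.0013). Col1a2, its partner in the same trimer, had 1236.5 and 1246.9 FPKM in GGPPS KO, against 1541.3 and 1228.2 FPKM in WT. The WT libraries lay on either side of both GGPPS KO libraries, and the gene was not called (log2 difference -0.15, SE 0.11, limma adjusted p = 0.24). With equal totals the Col1a1 call was lost (log2 difference 0.27, limma adjusted p = 0.0785) and Col1a2 was called lower (-0.41, limma adjusted p = 0.0059). Without WT library 2 Col1a2 was also called lower (-0.31, limma adjusted p = 0.0353), and without WT library 1 its difference was 0.016.

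Col3a1, the sole chain of type III collagen and abundant in distensible vessels, had 778 and 858 FPKM in GGPPS KO, against 1332 and 1328.7 FPKM in WT. Both GGPPS KO libraries were below both WT libraries, a 1.63-fold lower mean (log2 difference -0.70, SE 0.091, limma adjusted p = 1.36e-05), and the call held in all 13 alternatives, at -0.41 without length and GC trends. Type V collagen nucleates fibrils of types I and III, and its chains moved apart. Col5a2 had 198 and 229 FPKM in GGPPS KO, against 134 and 134 FPKM in WT. It was 1.59-fold higher with no overlap between genotypes (log2 difference 0.66, SE 0.10, limma adjusted p = 5.76e-05), and this call also held in all 13 alternatives. Col5a1 had 173 and 175 FPKM in GGPPS KO, against 210.0 and 208 FPKM in WT. The genotypes did not overlap and the mean was 1.2-fold lower (log2 difference -0.26, SE 0.092, limma adjusted p = 0.0231). Its direction turned without length and GC trends (0.29, limma adjusted p = 0.021). The call held in 9 of 13 alternatives, and was also lost without WT library 1 or 2 and without the intensity trend of the fit. Col5a3, a chain of a minor type V form, had 2.53 and 2.38 FPKM in GGPPS KO, against 1.99 and 2.27 FPKM in WT, and was not called. Without length and GC trends it was called higher (0.69, limma adjusted p = 0.000579), and with equal totals its difference was -0.038.

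Col3a1 and Col5a2 lie tail to tail on chromosome 1 (GRCm38; Col3a1 from 45311538 to 45349706 on the plus strand, Col5a2 from 45374321 to 45503282 on the minus strand), with 24614 bases between their ends. These neighbours moved in opposite directions. Col27a1, a fibrillar chain best known from cartilage, had 17.5 and 15.6 FPKM in GGPPS KO, against 26.8 and 24.1 FPKM in WT. The libraries of each genotype lay close together and the gene was called lower (log2 difference -0.59, SE 0.12, limma adjusted p = 0.000489), but without length and GC trends the difference was -0.032 (limma adjusted p = 0.781). Col11a2, a chain of cartilage type XI collagen, had 3.44 and 3.11 FPKM in GGPPS KO, against 4.93 and 4.01 FPKM in WT, and was called lower (log2 difference -0.35, SE 0.13, limma adjusted p = 0.0303). It was not called without GGPPS KO library 2 (limma adjusted p = 0.104), without WT library 1 (limma adjusted p = 0.322), without the filter on low values (limma adjusted p = 0.0873) or without length and GC trends (0.23).

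Col8a1 was higher by the widest margin of any tested collagen gene. It encodes a chain of type VIII collagen, a short-chain collagen of vessel walls that smooth muscle and endothelial cells make. It had 30.4 and 27.3 FPKM in GGPPS KO, against 1.36 and 1.27 FPKM in WT. Both GGPPS KO libraries stood far above both WT libraries, a 22-fold higher mean (log2 difference 3.69 on the FPKM + 1 scale, SE 0.12, limma adjusted p = 2.79e-11). Among all genes its rank by level was 2794 and 3235 in GGPPS KO, against 11274 and 11399 in WT. The call held in all 13 alternatives, and the difference ran from 2.42 with a pseudocount of 5 FPKM to 4.35 with a pseudocount of 0.1 FPKM. Col8a2, the other type VIII chain, had 0.315 and 0.259 FPKM in GGPPS KO, against 0.749 and 0.574 FPKM in WT. It stayed under the filter of 1 FPKM and was not tested, with both GGPPS KO libraries below both WT libraries. Col10a1, the type X chain of hypertrophic cartilage, ranged from 0.0965 to 0.194 FPKM over the libraries and was not tested.

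The 250 bases before the RefSeq start (GRCm38.p6) of these chains are shown because the partners of type VIII collagen differed in level and direction. Col8a1 lies on chromosome 16 (57624258 to 57754737, minus strand, 4 exons in the longest transcript) and Col8a2 on chromosome 4 (126286793 to 126314330, plus strand). Sequences are 5′ to 3′ on the strand of the gene, and capitals mark matches on either strand to any of 5 motifs. One was the CCAAT box, bound by nuclear factor Y. The GC box, bound by Sp family factors, was searched as GGGCGG. The core promoter element known as the TATA box was searched as TATAAA. Sites of the factor AP-1 were searched as TGANTCA, and the last was the CArG box, the motif of serum response factor. Overlapping matches were each counted. Windows are chr16:57754738-57754987 for Col8a1 and chr4:126286544-126286793 for Col8a2.
Col8a1: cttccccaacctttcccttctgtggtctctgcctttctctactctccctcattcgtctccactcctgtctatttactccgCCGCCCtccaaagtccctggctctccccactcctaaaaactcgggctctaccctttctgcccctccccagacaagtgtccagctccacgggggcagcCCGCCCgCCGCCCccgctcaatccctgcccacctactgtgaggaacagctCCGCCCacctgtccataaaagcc
Col8a2: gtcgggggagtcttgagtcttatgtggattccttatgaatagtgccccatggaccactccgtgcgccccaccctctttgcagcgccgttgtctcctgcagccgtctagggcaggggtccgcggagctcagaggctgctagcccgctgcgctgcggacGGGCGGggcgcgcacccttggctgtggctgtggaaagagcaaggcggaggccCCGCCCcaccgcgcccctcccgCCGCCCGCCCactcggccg
Each window held 4 GC box matches and no match to the other motifs. Of 38 windows at collagen starts, which cover 35 of the 44 genes, 57.9% held the GC box, beside 32.7% of all 32851 RefSeq windows. The shares were 34.2% and 33.8% for the CCAAT box, 13.2% and 12.4% for the TATA box, 2.63% and 6.75% for the AP-1 motif, and 2.63% and 1.47% for the CArG box. A match is a run of letters and does not show binding.

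Basement membrane collagen fell in its main chains. Of the 6 type IV chains, Col4a1, Col4a2, Col4a5 and Col4a6 were lower, Col4a3 was higher and Col4a4 was not called. The class median was -0.53 as deposited and -0.039 with length and GC trends removed. Col4a1 and Col4a2 encode the chains of the common type IV trimer. Col4a1 had 198 and 211 FPKM in GGPPS KO, against 326 and 308 FPKM in WT. Col4a2 had 189.7 and 221 FPKM in GGPPS KO, against 273 and 279.9 FPKM in WT. Neither overlapped between genotypes, with log2 differences of -0.63 (SE 0.094, limma adjusted p = 4.63e-05) and -0.43 (SE 0.10, limma adjusted p = 0.00189). Both calls were lost without length and GC trends, at -0.18 (limma adjusted p = 0.146) for Col4a1 and 0.098 (limma adjusted p = 0.501) for Col4a2.

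Col4a5 and Col4a6, whose chains join in type IV networks of smooth muscle, fell further than Col4a1 and Col4a2 as ratios of means. Col4a5 had 63.2 and 77.3 FPKM in GGPPS KO, against 202 and 210.2 FPKM in WT. Col4a6 had 22.4 and 27.6 FPKM in GGPPS KO, against 68.9 and 66.1 FPKM in WT. The means were 2.93-fold and 2.7-fold lower with no overlap, beside 1.55-fold and 1.35-fold for Col4a1 and Col4a2. The difference between these folds was not tested. The log2 differences were -1.54 (SE 0.11, limma adjusted p = 4.01e-08) and -1.40 (SE 0.12, limma adjusted p = 1.81e-07), and both calls held in all 13 alternatives, at -1.20 and -1.02 without length and GC trends. Col4a3, a chain of the trimer of mature glomerular basement membrane, was among the minor chains here. It had 4.11 and 4.25 FPKM in GGPPS KO, against 2.54 and 2.79 FPKM in WT, and was 1.57-fold higher without overlap (log2 difference 0.50, SE 0.12, limma adjusted p = 0.00264). Its partner Col4a4 had 3.63 and 3.48 FPKM in GGPPS KO, against 3.18 and 2.8 FPKM in WT. Both GGPPS KO libraries were above both WT libraries by a margin that was not called (log2 difference 0.19, SE 0.12, limma adjusted p = 0.185). Without length and GC trends Col4a4 was called higher (0.68, limma adjusted p = 0.000379).

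The type IV genes lie head to head in pairs on GRCm38. Col4a1 and Col4a2 (chromosome 8) have annotated starts 21 bases apart and overlap on opposite strands, Col4a3 and Col4a4 (chromosome 1) start 72 bases apart, and Col4a5 and Col4a6 (chromosome X) start 1309 bases apart. Within each pair the log2 differences had the same sign as deposited. The starts of Col4a5 and Col4a6 are shown because these neighbours moved together, with capitals as above. Windows are chrX:141475169-141475418 on the plus strand for Col4a5 and chrX:141474077-141474326 on the minus strand for Col4a6.
Col4a5: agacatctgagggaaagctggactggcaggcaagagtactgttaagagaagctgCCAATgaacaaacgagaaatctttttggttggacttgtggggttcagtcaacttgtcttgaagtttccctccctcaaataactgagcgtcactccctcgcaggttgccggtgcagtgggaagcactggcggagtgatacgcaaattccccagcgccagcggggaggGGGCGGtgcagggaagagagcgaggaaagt
Col4a6: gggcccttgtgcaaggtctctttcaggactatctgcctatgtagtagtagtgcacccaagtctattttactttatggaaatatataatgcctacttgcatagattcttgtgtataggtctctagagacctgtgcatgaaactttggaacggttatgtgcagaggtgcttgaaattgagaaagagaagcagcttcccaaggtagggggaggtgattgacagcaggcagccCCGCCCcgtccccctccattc
The Col4a5 window held a CCAAT match at bases -196 to -192 and a GC box match at bases -30 to -25 relative to its start, and the Col4a6 window held a GC box match at bases -21 to -16. Neither held a match to the other motifs.

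Type VI collagen, which links fibrils and cells near basement membranes, fell in all 4 chains tested. Col6a1 had 162 and 222 FPKM in GGPPS KO, against 434 and 440.3 FPKM in WT. Col6a2 had 164 and 214 FPKM in GGPPS KO, against 441 and 473 FPKM in WT. Col6a3 had 52.6 and 63.7 FPKM in GGPPS KO, against 95.6 and 101 FPKM in WT. These chains form the classical type VI trimer, and in each of them both GGPPS KO libraries lay below both WT libraries, GGPPS KO library 1 lowest. The means were 2.28-fold, 2.41-fold and 1.69-fold lower. The log2 differences were -1.20 (SE 0.13, limma adjusted p = 1.73e-06), -1.28 (SE 0.12, limma adjusted p = 5.08e-07) and -0.76 (SE 0.11, limma adjusted p = 4.26e-05). Col6a6, a chain thought to stand in for the Col6a3 chain, had 1.42 and 2.41 FPKM in GGPPS KO, against 6.4 and 6.7 FPKM in WT, and fell 3.42-fold (log2 difference -1.39, SE 0.15, limma adjusted p = 3.08e-06). Without length and GC trends Col6a1, Col6a2 and Col6a6 kept their calls at -1.01, -1.01 and -0.93, and Col6a3 lost it (-0.23, limma adjusted p = 0.0934). Col6a4, Col6a5 and Col28a1 ranged from 0.00422 to 0.101 FPKM and were not tested.

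Both multiplexins fell. Col18a1, the precursor of endostatin in vascular basement membranes, had 204 and 224 FPKM in GGPPS KO, against 569.9 and 623 FPKM in WT. Its mean was 2.79-fold lower without overlap, and its rank by level among all genes was 436 and 418 in GGPPS KO, against 129 and 123 in WT (log2 difference -1.47, SE 0.097, limma adjusted p = 1.8e-08). Col15a1, which bridges basement membranes to interstitial fibrils, had 119 and 149 FPKM in GGPPS KO, against 219.6 and 206 FPKM in WT. It was 1.58-fold lower without overlap (log2 difference -0.67, SE 0.11, limma adjusted p = 0.000147). Both calls held in all 13 alternatives, at -1.0 for Col18a1 and -0.35 for Col15a1 without length and GC trends. Col18a1 (chromosome 10, 77052178 to 77166548, minus strand) has a short and a long form from separate promoters. The gene-level values cannot tell them apart, so both RefSeq windows are shown, chr10:77166531-77166780 and chr10:77113706-77113955, with capitals as above.
Col18a1 upstream start: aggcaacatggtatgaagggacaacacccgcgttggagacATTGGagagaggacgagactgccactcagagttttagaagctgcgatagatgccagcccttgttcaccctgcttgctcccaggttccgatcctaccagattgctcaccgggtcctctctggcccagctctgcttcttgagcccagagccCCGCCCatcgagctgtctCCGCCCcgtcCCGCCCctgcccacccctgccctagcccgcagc
Col18a1 downstream start: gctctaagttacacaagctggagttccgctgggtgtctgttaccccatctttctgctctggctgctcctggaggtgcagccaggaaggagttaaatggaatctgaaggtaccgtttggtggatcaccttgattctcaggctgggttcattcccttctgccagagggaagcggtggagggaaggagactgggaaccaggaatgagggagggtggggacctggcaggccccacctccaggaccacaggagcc
The upstream window held 3 GC box matches and 1 CCAAT match, and the downstream window held none of the motifs searched.

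FACIT collagens, which attach to fibril surfaces, were higher in 2 and lower in 2 of 4 tested genes. Col14a1, which regulates fibril growth, had 16.8 and 23.6 FPKM in GGPPS KO, against 54.9 and 47.5 FPKM in WT. The genotypes were far apart and the mean was 2.54-fold lower (log2 difference -1.32, SE 0.14, limma adjusted p = 2.52e-06), a call that held in all 13 alternatives. Col20a1, a low-level relative of Col14a1, had 1.08 and 1.28 FPKM in GGPPS KO, against 2.17 and 2.2 FPKM in WT. It was called lower (log2 difference -0.55, SE 0.12, limma adjusted p = 0.0014) and lost the call without length and GC trends (-0.25, limma adjusted p = 0.0743). Col16a1, a FACIT of several connective tissues, had 21 and 20.3 FPKM in GGPPS KO, against 16.3 and 15.5 FPKM in WT. Col12a1, a FACIT of tendon and other loaded tissues, had 3.4 and 4.62 FPKM in GGPPS KO, against 3 and 2.57 FPKM in WT. In both genes the GGPPS KO libraries were the higher ones, with log2 differences of 0.36 (SE 0.11, limma adjusted p = 0.0112) and 0.40 (SE 0.14, limma adjusted p = 0.0257). Neither call held with equal totals (limma adjusted p = 0.361 for Col16a1 and 0.217 for Col12a1). Col16a1 was also not called without WT library 1 or 2. Col12a1 was also not called without GGPPS KO library 2 (log2 difference 0.22), WT library 2 or the filter on low values.

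Of the transmembrane chains only Col23a1 reached the filter, and it did so through the WT libraries. It had 0.574 and 0.57 FPKM in GGPPS KO, against 2.21 and 2.27 FPKM in WT, with almost no spread within a genotype (log2 difference -1.04, SE 0.12, limma adjusted p = 4.24e-06). Under that filter it could be called in no other direction, so the call lends little weight. It was not tested with a filter of 5 FPKM or without either WT library. In the 10 alternatives that could test it the call held, with differences from -1.80 to -0.38. Of the 18 untested collagen genes 11 were lower in both GGPPS KO libraries than in both WT libraries and 3 were higher, with no test. Among all genes tested 83.1% were without overlap, and the share among genes under the filter was not counted. Several of these values are very low, so the count is not a result about these chains. Col9a1, a FACIT of cartilage, had 0.18 and 0.303 FPKM in GGPPS KO, against 1.32 and 0.734 FPKM in WT. Col19a1, a FACIT of basement membrane zones, had 0.093 and 0.095 FPKM in GGPPS KO, against 0.542 and 0.698 FPKM in WT. Col7a1, the chain of anchoring fibrils, had 0.477 and 0.356 FPKM in GGPPS KO, against 1.06 and 0.774 FPKM in WT. These 3 were low in GGPPS KO, whereas Col2a1, the main fibrillar chain of cartilage, held the highest value of any untested chain. Col2a1 had 1.33 and 0.591 FPKM in GGPPS KO, against 0.145 and 0.0506 FPKM in WT. Besides Col8a2, the other untested chains, among them Col11a1, Col24a1, Col22a1, Col9a2, Col9a3, Col13a1, Col17a1, Col25a1 and Col26a1, stayed at or under 0.512 FPKM in every library. Of the chondrocyte markers, Sox9 had 10.7 and 10.3 FPKM in GGPPS KO, against 0.507 and 0.636 FPKM in WT, and 2 of 6 tested were higher and 2 lower. Both higher ones, Sox9 and Prg4, reached 1 FPKM only in GGPPS KO. Prg4 had 5.56 and 7.06 FPKM in GGPPS KO, against 0.272 and 0.627 FPKM in WT. The lower ones were Hapln1 (0.554 and 0.767 FPKM in GGPPS KO, against 2.28 and 2.07 FPKM in WT) and Comp (6.01 and 6.53 against 8.66 and 7.98 FPKM). Hapln1 reached 1 FPKM only in WT. The markers of this list summed to 30.1 and 33.9 FPKM in GGPPS KO, against 21.8 and 22.8 FPKM in WT. Sox9 and Prg4 carried that higher sum. The part of these markers in the Col2a1 values was not tested. Acan, the cartilage aggrecan gene, had 4.17 and 6.4 FPKM in GGPPS KO, against 6.45 and 6.5 FPKM in WT and was not called. Matn1, a cartilage matrilin, was at or under 0.0199 FPKM. Osteoblast markers summed to 3.2 and 3.02 FPKM in GGPPS KO, against 9.12 and 11.6 FPKM in WT.

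Ratios of chains within a trimer or fibril type showed the shifts in each library without regard to its scaling by a single factor. Trends with length and GC content do not cancel in a ratio, and ratios were not taken without them. The Col1a1 to Col1a2 ratio was 1.5 and 1.26 in GGPPS KO, against 0.862 and 0.852 in WT. The Col3a1 to Col1a1 ratio was 0.421 and 0.544 in GGPPS KO, against 1 and 1.27 in WT. Col3a1 was thus below Col1a1 in both GGPPS KO libraries and at or above it in both WT libraries. The Col5a1 to Col5a2 ratio was 0.872 and 0.767 in GGPPS KO, against 1.56 and 1.55 in WT. The Col4a5 to Col4a1 ratio was 0.32 and 0.366 in GGPPS KO, against 0.619 and 0.681 in WT. The genotypes were apart in each of these ratios. By contrast, the Col6a2 to Col6a1 ratio overlapped, at 1.02 and 0.965 in GGPPS KO, against 1.01 and 1.07 in WT. The Col4a5 to Col4a6 ratio was 2.82 and 2.8 in GGPPS KO, against 2.93 and 3.18 in WT. The Col4a1 to Col4a2 ratio was 1.04 and 0.955 in GGPPS KO, against 1.19 and 1.1 in WT. The genotypes did not overlap in these 2 type IV ratios, which were lower in GGPPS KO by small margins (log2 differences of -0.12 and -0.20). The Col8a1 to Col8a2 ratio was 96.6 and 105 in GGPPS KO, against 1.81 and 2.21 in WT, with Col8a2 under 1 FPKM throughout. No test is given for ratios, since with 2 libraries a genotype the smallest two-sided p of an exact permutation test is 0.333.

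**Figure D4:**
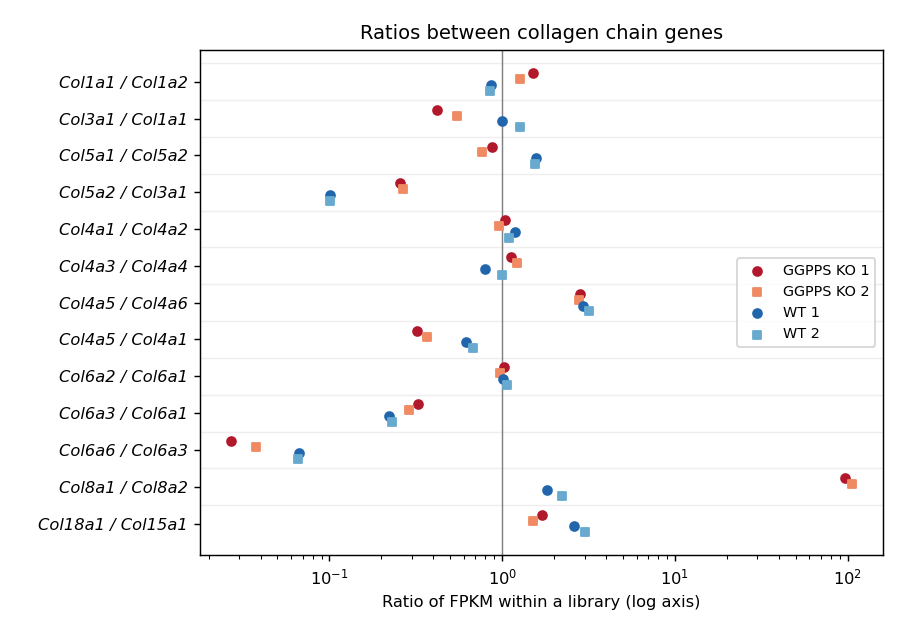
Ratio of the FPKM of a pair of collagen chains in each library, on a log axis, with GGPPS KO and WT marked by colour and 1 point per library. The Col1a1 to Col1a2 ratio lies at 1.5 and 1.26 in GGPPS KO and 0.862 and 0.852 in WT, while the Col6a2 to Col6a1 points of the genotypes overlap.

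The genes that modify, fold, process, bind and break down collagen did not share a direction. Of 104 tested genes on 9 lists, 37 were higher (35.6%) and 45 lower (43.3%), with a median log2 difference of -0.17, beside 35.2% higher and 30.6% lower among all genes. The higher share was thus near that of all genes. With equal totals 22 were higher (21.2%) and 59 lower (56.7%), beside 25.1% and 45.6% of all genes. Enzymes that hydroxylate and glycosylate the chains were higher in 8 (57.1%) and lower in 2 (14.3%) of 14 tested. Their median was 0.39 (0.13 with equal totals, where 3 were higher and 6 lower). Without GGPPS KO library 1 or WT library 2, 1 was lower. P3h1, a prolyl 3-hydroxylase, had 82.2 and 89.1 FPKM in GGPPS KO, against 51.4 and 47.8 FPKM in WT (log2 difference 0.78, SE 0.10, limma adjusted p = 1.51e-05). Plod3, a lysyl hydroxylase and glycosyltransferase, had 80.6 and 82 FPKM in GGPPS KO, against 55.1 and 51.1 FPKM in WT (log2 difference 0.61, limma adjusted p = 0.000115). Both rises, and that of P3h4, a partner of lysyl hydroxylase 1 (127 and 125 FPKM in GGPPS KO, against 93 and 85.6 FPKM in WT), held in all 13 alternatives. P4hb, the protein disulfide isomerase subunit of prolyl 4-hydroxylase and the most abundant on the list, had 360.4 and 424 FPKM in GGPPS KO, against 283 and 275 FPKM in WT. Its call, with those of Ppib and Colgalt1, was lost with equal totals.

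Folding and secretion genes were higher in 5 and lower in 4 of 13 tested, with a median of 0.17 as deposited and -0.085 with equal totals, where 3 were higher and 5 lower. The shares as deposited, 38.5% higher and 30.8% lower, were near those of all genes. Serpinh1, the collagen chaperone HSP47, had 1111.3 and 1101.5 FPKM in GGPPS KO, against 853 and 772 FPKM in WT and lost its higher call with equal totals (limma adjusted p = 0.0984). Fkbp10, a collagen foldase, had 219.9 and 216 FPKM in GGPPS KO, against 151 and 135 FPKM in WT. Kdelr2, a receptor that returns chaperones such as HSP47 to the endoplasmic reticulum, had 134 and 150.1 FPKM in GGPPS KO, against 80.6 and 73.2 FPKM in WT. Those rises stood beside falls of other genes on the list. Tmem38b, an ion channel of the endoplasmic reticulum, had 12.2 and 18.3 FPKM in GGPPS KO, against 42.4 and 48.2 FPKM in WT (log2 difference -1.53, SE 0.15, limma adjusted p = 1.12e-06). Sparc, a collagen-binding matricellular protein and the most abundant gene of this list, had 4573.4 and 4964.9 FPKM in GGPPS KO, against 6778.5 and 6423.2 FPKM in WT. Fkbp14, another foldase, had 35.5 and 39.7 FPKM in GGPPS KO, against 26.5 and 24 FPKM in WT.

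Procollagen processing genes were lower in 5 (83.3%) and higher in 1 (16.7%) of 6 tested, beside 30.6% and 35.2% of all genes. Their median was -0.45. Without length and GC trends 3 were lower, with a median of -0.24, and without GGPPS KO library 1 also 3. Adamts2, an N-propeptidase of fibrillar procollagens, had 69.9 and 84.3 FPKM in GGPPS KO, against 145 and 135 FPKM in WT (log2 difference -0.86, SE 0.11, limma adjusted p = 1.15e-05). Adamts14, a related N-propeptidase, had 3.14 and 3.63 FPKM in GGPPS KO, against 9.33 and 8.91 FPKM in WT. Both falls held in all 13 alternatives. Bmp1, the C-propeptidase, had 121 and 129 FPKM in GGPPS KO, against 190.5 and 166 FPKM in WT, and was not called without length and GC trends (-0.17). Pcolce, an enhancer of that enzyme, was the 1 higher gene, at 73.1 and 70.8 FPKM in GGPPS KO, against 56.8 and 57.1 FPKM in WT, and its call was lost with equal totals or without either WT library. Pcolce2, a second enhancer, had 108 and 143 FPKM in GGPPS KO, against 162 and 164 FPKM in WT. Furin, which activates propeptidases, had 39.1 and 41.6 FPKM in GGPPS KO, against 49 and 47.8 FPKM in WT. Pcolce2 was no longer called lower without GGPPS KO library 1, nor Furin without that library or either WT library.

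Cross-linking enzymes were higher in 4 (57.1%) and lower in 2 (28.6%) of 7 tested, beside 35.2% and 30.6% of all genes. Their median was 0.29 (0.027 with equal totals, where 1 was higher and 3 lower). Without WT library 2, 2 were higher. Loxl2, a lysyl oxidase that acts on type IV collagen, had 48.6 and 58 FPKM in GGPPS KO, against 32.1 and 31.7 FPKM in WT (log2 difference 0.72, SE 0.11, limma adjusted p = 7.36e-05). Its rise held in all 13 alternatives, and Loxl3 and Loxl4 lost theirs with equal totals, Loxl3 also without WT library 2 and Loxl4 without WT library 1. Lox, the main lysyl oxidase of fibrils, had 256 and 336 FPKM in GGPPS KO, against 251 and 229 FPKM in WT, and its call (limma adjusted p = 0.0482) held in 6 of 13 alternatives. Without GGPPS KO library 2 its log2 difference was 0.096 (limma adjusted p = 0.402), and without WT library 2 it was 0.22 (limma adjusted p = 0.214). Loxl1, a lysyl oxidase best known for elastic fibres and the most abundant of the list, had 370.3 and 380.5 FPKM in GGPPS KO, against 541 and 488 FPKM in WT. Tgm2, a transglutaminase that cross-links matrix, had 153 and 176 FPKM in GGPPS KO, against 223 and 222 FPKM in WT. Both of these fell (limma adjusted p = 0.000781 and 0.00149). Loxl1 lost its call without length and GC trends (-0.26, limma adjusted p = 0.0562), where 1 gene of the list was lower.

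Regulators of fibrils were lower in 10 (62.5%) and higher in 2 (12.5%) of 16 tested, beside 30.6% and 35.2% of all genes. Their median was -0.72. Without length and GC trends 4 were higher (25%) and 9 lower (56.2%), beside 35.7% and 29.2% of all genes. Several of these genes are also fibroblast markers here (Dcn, Lum and Dpt). Fmod, fibromodulin, had 3.18 and 2.93 FPKM in GGPPS KO, against 19 and 18.1 FPKM in WT. Ogn, osteoglycin, had 48.3 and 68.4 FPKM in GGPPS KO, against 267 and 291 FPKM in WT. Prelp, another small leucine-rich proteoglycan, had 32 and 38 FPKM in GGPPS KO, against 136 and 152 FPKM in WT. These 3 proteoglycan genes fell by 2.27, 2.26 and 2.02 on the log2 scale, with limma adjusted p = 2.27e-09, 8.52e-09 and 3.78e-09. Lum, lumican, a proteoglycan gene of the same list, rose instead. It had 83.6 and 82.4 FPKM in GGPPS KO, against 46.4 and 41.8 FPKM in WT (log2 difference 0.90, limma adjusted p = 3.86e-06). Tnxb, tenascin-X, had 16.3 and 17.8 FPKM in GGPPS KO, against 55.3 and 58.4 FPKM in WT. Abi3bp, a matrix protein, had 6.1 and 7.26 FPKM in GGPPS KO, against 25.4 and 32.5 FPKM in WT. Fn1, fibronectin, on which collagen fibrils are laid down, was the other higher gene of the list. Its level was 969 and 1118.3 FPKM in GGPPS KO, against 293 and 347 FPKM in WT (log2 difference 1.70, SE 0.11, limma adjusted p = 1.29e-08). Bgn, biglycan, the most abundant of the list, had 1624.8 and 1795.4 FPKM in GGPPS KO, against 1663.5 and 1758.9 FPKM in WT, overlapped between genotypes and was not called. Its sign turned without GGPPS KO library 1 or WT library 2.

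Basement membrane partners of type IV collagen were lower in 9 (75%) and higher in 1 (8.33%) of 12 tested, beside 30.6% and 35.2% of all genes. Their median was -0.66. Without length and GC trends 5 were lower (41.7%) and 1 higher (8.33%), beside 29.2% and 35.7% of all genes, with a list median of -0.14. Lama4, a laminin chain of vessels, had 7.4 and 13.8 FPKM in GGPPS KO, against 49 and 54.3 FPKM in WT (log2 difference -2.24, SE 0.19, limma adjusted p = 2.5e-07). Hspg2, perlecan and the most abundant of the list, had 142 and 156 FPKM in GGPPS KO, against 291 and 291 FPKM in WT, and lost its call without length and GC trends (-0.22, limma adjusted p = 0.103). Lamb2, a laminin chain of mature vessels, had 128 and 148 FPKM in GGPPS KO, against 235 and 237 FPKM in WT. Lamb1, its counterpart in other laminins, had 9.9 and 10.8 FPKM in GGPPS KO, against 3.15 and 2.97 FPKM in WT (log2 difference 1.49, SE 0.12, limma adjusted p = 1.76e-07). These laminin chains moved in opposite directions, and both calls held in all 13 alternatives. Smoc1, a basement membrane glycoprotein, fell to 78.2 and 88.6 FPKM in GGPPS KO, against 152 and 169.9 FPKM in WT. Nid2, a nidogen that links laminin to type IV collagen, fell to 6.86 and 8.2 FPKM in GGPPS KO, against 14.3 and 15.7 FPKM in WT.

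Collagen receptors were higher in 3 and lower in 3 of 8 tested, with a median of -0.12 that turned to 0.11 without length and GC trends. The higher share of 37.5% was near that of all genes. Fewer genes were higher without GGPPS KO library 1 or 2, in part because Itga2 then no longer passed the filter and was not tested. Integrin chains that bind collagen moved apart. Itga2 had 2.86 and 3.75 FPKM in GGPPS KO, against 0.0628 and 0.0914 FPKM in WT, and passed the filter through the GGPPS KO libraries alone (log2 difference 1.99, SE 0.13, limma adjusted p = 2.15e-08). Itga1, an integrin chain of smooth muscle that binds type IV collagen, had 3.69 and 5.28 FPKM in GGPPS KO, against 12.7 and 14.2 FPKM in WT (log2 difference -1.41, SE 0.15, limma adjusted p = 1.59e-06). Itga10, another alpha chain, had 9.21 and 9.38 FPKM in GGPPS KO, against 20.7 and 18.3 FPKM in WT. Mrc2, a receptor that takes up collagen fragments, had 48.9 and 49.8 FPKM in GGPPS KO, against 30.6 and 29.6 FPKM in WT, and its rise held in all 13 alternatives. Itgb1, the shared beta chain and most abundant of the list, had 319 and 399 FPKM in GGPPS KO, against 403 and 437 FPKM in WT and was not called. With equal totals it was called lower (-0.50, limma adjusted p = 0.00117), as it was without GGPPS KO library 2 (-0.39, limma adjusted p = 0.00684). Ddr1, a receptor tyrosine kinase for collagen, had 63.1 and 64.4 FPKM in GGPPS KO, against 84.9 and 80.1 FPKM in WT. It lost its lower call without length and GC trends or without WT library 1, and the higher call of Itga11 was lost with equal totals and without 3 of the 4 libraries in turn.

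Genes of collagen breakdown were higher in 7 (77.8%) and lower in 2 (22.2%) of 9 tested, beside 35.2% and 30.6% of all genes. Their median was 0.75 as deposited and 0.50 with equal totals. With equal totals 5 were higher (55.6%) and 2 lower (22.2%), beside 25.1% and 45.6% of all genes. Without WT library 1 or 2, Mmp9 no longer passed the filter and was not tested. Ctsk, a lysosomal collagenase, had 103 and 107 FPKM in GGPPS KO, against 34.9 and 34.5 FPKM in WT (log2 difference 1.57, SE 0.099, limma adjusted p = 1.27e-08). Mmp14, a membrane-bound collagenase, had 268 and 254 FPKM in GGPPS KO, against 100.5 and 95.3 FPKM in WT (log2 difference 1.41, SE 0.095, limma adjusted p = 2.43e-08). Ctsl, a lysosomal protease and the most abundant of the list, had 388 and 474 FPKM in GGPPS KO, against 177 and 195 FPKM in WT. These 3 rises and that of Pepd, which splits proline dipeptides (22 and 24.3 FPKM in GGPPS KO, against 12.9 and 13.9 FPKM in WT), held in all 13 alternatives. Macrophages also express lysosomal cathepsins, and the macrophage markers above were higher in GGPPS KO, a link that was not tested. Mmp9, a gelatinase, fell to 0.0964 and 0.136 FPKM in GGPPS KO, against 1.01 and 1.03 FPKM in WT, and passed the filter through the WT libraries alone. Fap, a serine protease of fibroblasts that cleaves denatured collagen, fell to 2.44 and 2.97 FPKM in GGPPS KO, against 5.7 and 7.82 FPKM in WT. Mmp8 and Mmp1a are listed at 0.

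Among regulators of collagen transcription 6 were higher and 8 lower of 19 tested (31.6% and 42.1%, beside 35.2% and 30.6% of all genes), with a median of -0.31. With equal totals 12 were lower, with a median of -0.54, and 12 were lower without GGPPS KO library 2. Sox9, an activator of cartilage collagen genes, had the largest difference on this list (log2 difference 2.87, SE 0.12, limma adjusted p = 3.47e-10), and passed the filter through the GGPPS KO libraries alone. Ctgf, a matricellular growth factor and the most abundant of the list, had 1656.1 and 1882.7 FPKM in GGPPS KO, against 615 and 608 FPKM in WT. Tgfb1, a cytokine that raises fibrillar collagen transcription, had 50.9 and 49 FPKM in GGPPS KO, against 20.9 and 20.9 FPKM in WT. Both genes were higher without overlap, at log2 differences of 1.53 (limma adjusted p = 1.05e-08) and 1.22 (limma adjusted p = 2.42e-07). Scx, scleraxis, an activator of tendon collagen genes, had 82.5 and 94.1 FPKM in GGPPS KO, against 30.7 and 39.6 FPKM in WT. Ski, a repressor of SMAD-driven transcription, fell to 40.3 and 46.5 FPKM in GGPPS KO, against 98.6 and 101 FPKM in WT. Smad7, which restrains TGF-beta receptors, fell to 10.6 and 13.6 FPKM in GGPPS KO, against 35.2 and 27 FPKM in WT. The calls of Ctgf, Tgfb1, Scx, Ski and Smad7 held in all 13 alternatives.

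**Figure D5:**
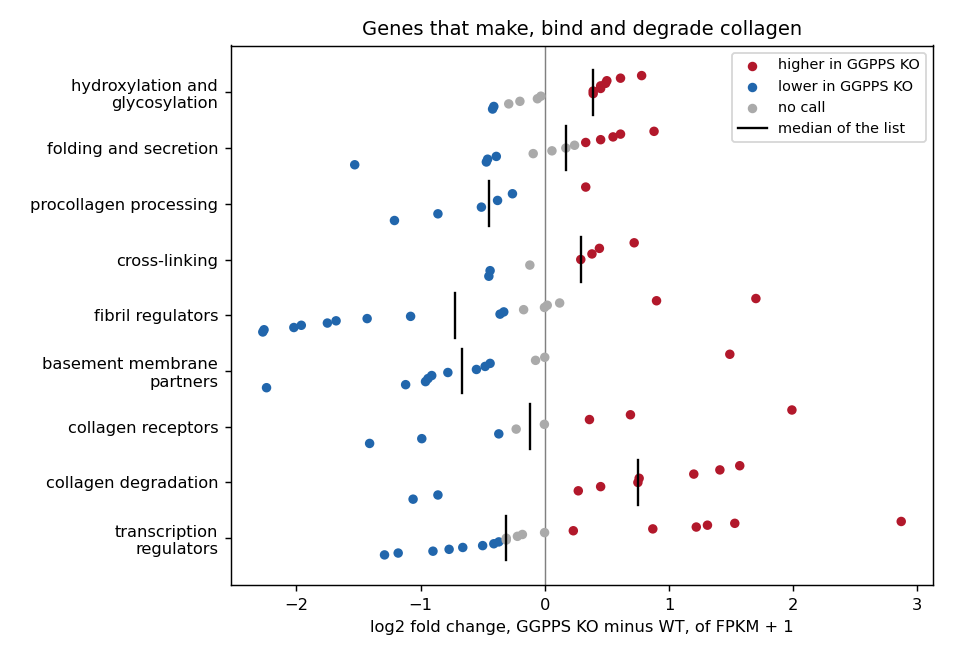
Log2 difference of FPKM + 1, GGPPS KO minus WT, for each tested gene of the 9 collagen pathway lists, 1 point per gene, with called and uncalled genes marked and the list median as a line. Degradation genes have a median of 0.75 and fibril regulators one of -0.72, beside 0.03 for all genes tested, while with equal totals the folding and secretion median turns to -0.085 and, without length and GC trends, the receptor median turns to 0.11.

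The GGPPS KO libraries were not alike in all members. Of the 17 chains called lower, 14 had GGPPS KO library 1 below library 2, and of the 6 called higher 3 did. The same share among all genes was not counted. Over genes with a value in every library, the median ratio to a gene's geometric mean was 0.97 in GGPPS KO library 1. In GGPPS KO library 2 it was 1.047, so library 1 was also somewhat lower over genes in general. Whether the gap in these chains was of that size was not tested. GGPPS KO library 1 also had the lower summed level of contractile smooth muscle genes, and the part of this in the values was not tested. Of the 23 called collagen genes 13 kept their call in every alternative in which they could be tested. Several chains share exon sequence with an annotated gene on the other strand (GENCODE M21), among them Col5a1, Col15a1, Col6a6, Col4a3 and the overlapping starts of Col4a1 and Col4a2. The sources used here do not say whether strand was used in counting, so reads of such genes may not be told apart. Exons of Col3a1, Col20a1 and Col7a1 also overlap an annotated gene on the same strand, which strand would not separate.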

How the data were processed

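Transcripts were measured in 4 aorta libraries made from polyadenylated RNA with a kit that primes with random hexamers, per the labels' protocols. The deposited values are FPKM, 1 table per library, per the file headers, and the build was mm10, per the submitters' processing notes. Those notes also list featureCounts 1.5.0-p3, HISAT2 2.0.5 and DESeq2 1.16.1, with no role for any of them, and the sources used here do not name the program behind the FPKM. FPKM divide by length and by mapped fragments, so a few very abundant genes can lower all others in a library. Each table has 24346 rows, of which 4 with a repeated symbol were left out of tests.

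Low values were searched for a step that would show whole fragments. The most frequent ratio between libraries of a genotype, to 3 decimals, covered 0.32% of 2188 genes in GGPPS KO and 0.302% of 1986 genes in WT. Fragment counts were thus not recovered, depth is unknown, and precision rests on the spread between libraries.

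Genes that reached 1 FPKM in 2 or more libraries were fitted with limma 3.58.1 (R 4.3.3) on log2(FPKM + 1) with an intensity trend, all 4 libraries and no covariate. Differences are GGPPS KO minus WT and understate the change of genes with low values. A gene's own libraries gave 2 of the degrees of freedom, out of a median total of 13.4 once information from other genes was added. Folds are ratios of mean FPKM. P-values were adjusted by Benjamini-Hochberg over 12312 genes with a threshold of 0.05. The fit was run on simulated data in which few genes changed and library scaling did not differ. Most genes were called in the real data, so that run does not show how calls depend on scaling. Alternatives changed the pseudocount, the filter, the scaling, the length and GC trends (GENCODE M21 on GRCm38, values for 99.3% of tested genes and 100% of tested collagen genes), the variance model and the libraries used. Promoter windows are RefSeq, and 35 of 44 genes matched. Each collagen gene was accounted for, with library values for those called or at 10 FPKM or more. From each pathway list up to 6 called genes by smallest adjusted p and the most abundant were eligible to be named. The rule did not name Acan, Matn1, Prg4, Hapln1, Comp, Lum or the chains under 1 FPKM that are given with values. These were chosen after their values were seen. The members, gene lists and tests were chosen with earlier results of these data known.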

Additional observations from a re-analysis of the deposited data

How the results depend on the processing

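With column totals made equal, the collagen genes called higher numbered 3 and the collagen median was -0.78, while the pathway lists had 22 genes higher and a median of -0.42. Without length and GC trends, 10 collagen genes were lower, and the medians were -0.10 for collagen and -0.049 for the pathway lists. The collagen median was -0.40 with a pseudocount of 5 FPKM and -0.26 without the filter on low values, which lets in genes near 0. Leaving out 1 library at a time gave 4 to 6 collagen genes higher and 14 to 17 lower, a collagen median of -0.58 to -0.49, 29 to 36 pathway genes higher and 38 to 54 lower, and a pathway median of -0.29 to -0.069, the -0.29 without GGPPS KO library 2. Directions turned without length and GC trends for the fibrillar median (0.26), the FACIT median (0.28), the receptor median (0.11), Col1a2 (0.17), Col4a2 (0.098), Col5a1 (0.29), Col11a2 (0.23) and Furin (0.099). With equal totals they turned for the folding and secretion median (-0.085), Col4a4 (-0.008) and Col5a3 (-0.038). The receptor median was 0.013 without the filter, and leaving out 1 library at a time gave a folding and secretion median of -0.00039 to 0.24 (turned without GGPPS KO library 2), Col1a2 at -0.31 to 0.016 (turned without WT library 1) and Bgn at -0.074 to 0.07 (turned to 0.07 without GGPPS KO library 1 and to 0.038 without WT library 2). The cause was not tested for any of these. Over 329 values of collagen genes under alternatives, 300 kept direction and call, 18 lost the call, 4 gained one and 7 turned, and over 718 values of named pathway genes the numbers were 679, 33, 3 and 3. With 1 library left in a genotype, that library is assumed to vary like the others. No paired analysis was possible because the labels number the libraries in a single run over both genotypes, and the replicate numbers used here were given in accession order and pair nothing. Unknown depth limits what can be said of chains under 1 FPKM.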
